A study of Mus musculus with 10 samples.

Results

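The genes described here supply the 2 inputs of fatty acid synthesis, cytosolic acetyl-CoA and NADPH, in interscapular brown adipose tissue (iBAT). The group was chosen by gene function as *Acly*, *Acss2*, *Slc25a1*, *Me1*, *G6pdx*, *Pgd*, *Idh1*, *Mdh1*, *Tkt* and *Taldo1*, and holds 10 of the 27267 genes listed. Earlier results of these data were known when it was chosen, so counts over it are descriptions. All 10 members passed the filter on low values (a mean normalized count of at least 10), as did 13714 genes in all. The samples were bulk RNA of iBAT from C57BL/6 mice labelled male, 4 weeks old and fed standard chow, with 5 mice labelled wild type and 5 labelled as a global deletion of *Mgp* (*Mgp*-KO), a label that the *Mgp* counts bear out in 3 of the 5. *Mgp* encodes matrix Gla protein, a secreted inhibitor of bone morphogenetic proteins. The deletion is global and so not limited to fat.

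Fatty acid synthesis takes place in the cytosol, whereas acetyl-CoA is made in the mitochondrion and cannot cross its inner membrane. The carbon leaves as citrate through the carrier *Slc25a1* and is split by *Acly*, or is made in the cytosol from acetate by *Acss2*. The oxaloacetate left by *Acly* is reduced to malate by *Mdh1*, and *Me1* turns malate into pyruvate while forming NADPH. Further NADPH comes from *Idh1* and from the oxidative arm of the pentose phosphate pathway, *G6pdx* and *Pgd*, whose sugar phosphates *Tkt* and *Taldo1* return to glycolysis. Brown fat is known for a high rate of fatty acid synthesis alongside fat oxidation.

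The libraries held 9253793 to 22252260 reads on genes, at least 19616366 in replicates 1 to 3 and at most 13281873 in replicates 4 and 5. These sets also differed in the share of reads on mitochondrial ribosomal RNA, 0.771 to 1.72% in the first and 6.50 to 16.7% in the second. The targeted gene went against the label of 2 libraries. *Mgp* had normalized counts of 576, 489, 466, 1146 and 839 in wild type 1 to 5, and of 0, 0.765 and 0.821 in the *Mgp*-KO-labelled libraries 1 to 3, but of 500 and 331 in those labelled *Mgp*-KO 4 and 5. Directions are therefore given for the *Mgp*-KO-labelled libraries, and also within replicates 1 to 3. Wild type 2 had an *Xist* normalized count of 5094, against 44.0 or less in every other library, which goes against its male label. All 11 brown adipocyte markers on the list, *Ucp1* among them, were above 0 in every library. Nothing in the sources used here says whether the replicates came from separate litters or preparation days.

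A normalized count is the number of reads on a gene divided by the library's size factor, so that libraries of different depth can be compared for 1 gene. Fold changes are differences in mean log2(normalized count + 1), *Mgp*-KO-labelled libraries against wild type, and an adjusted p below 0.05 over all 13714 genes was the threshold. The 10 members together took 0.537 to 1.27% of the reads in the wild type libraries and 0.264 to 0.336% in the *Mgp*-KO-labelled libraries, and these ranges did not overlap. Every member had a log2 fold change below 0, from -2.45 for *Me1* to -0.49 for *Idh1*, with a median of -1.50 where the median of all genes tested was 0.03. The *Mgp*-KO-labelled libraries were all below all wild type libraries for 8 of the 10 members, the exceptions being *G6pdx* and *Mdh1*. Of all genes tested, 2.11% showed that separation in the same direction. In bulk tissue, fewer cells of a type and less RNA per cell cannot be told apart.

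Past the threshold in limma over all 10 libraries, 1 member fell, *Slc25a1*, where 0.0583% of all genes were called lower. The adjusted p of 6 others lay between 0.0504 and 0.0703, and 9 of 10 had an unadjusted p under 0.05, as did 10.4% of all genes in either direction. When a term for the replicate set (1 to 3 or 4 and 5) was added to the same model, 8 members fell, all but *Idh1* and *Mdh1*, where 1.54% of all genes were called lower. This count was 4 of 10 without wild type 2, namely *Acss2*, *Slc25a1*, *Me1* and *Taldo1*, where 0.321% of all genes were called lower, and 8 of 10 without *Mgp*-KO-labelled library 4, where 2.69% were. Within replicates 1 to 3 alone, where *Mgp* follows the labels, 7 members fell, all but *G6pdx*, *Idh1* and *Mdh1*, and 1.65% of all genes were called lower. DESeq2 with default settings on the recovered reads, the tool named in the study's methods, called the same 7 members lower and 1.26% of the genes it tested.

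**Figure D1:**
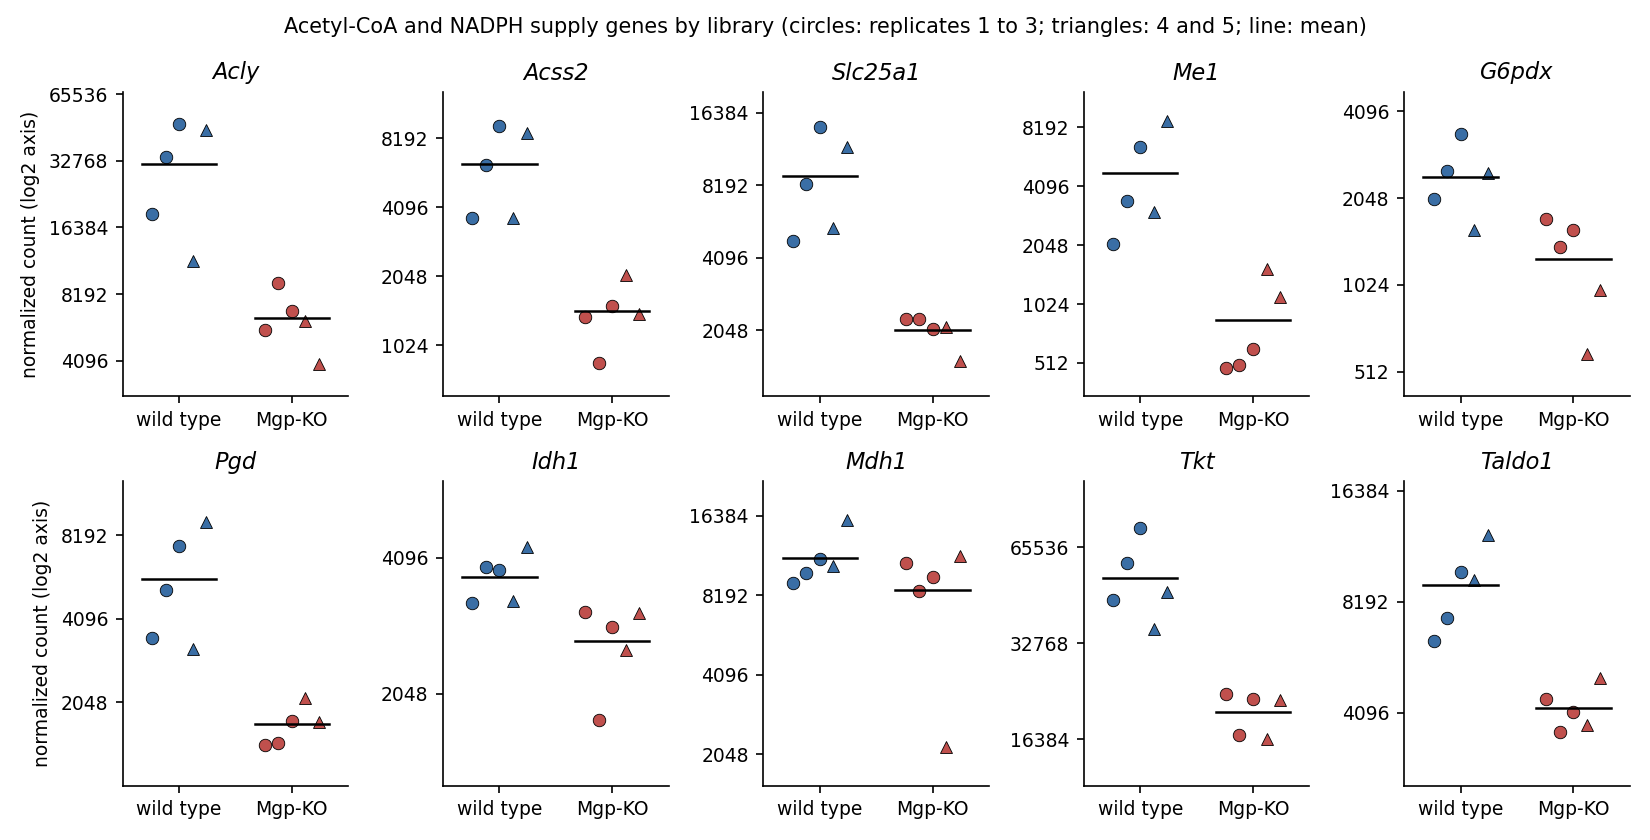
Normalized counts of the 10 supply genes in each library, on log2 axes, 1 panel per gene, with circles for replicates 1 to 3, triangles for replicates 4 and 5, and a line at the arithmetic mean of each group of 5. The groups do not overlap in 8 panels, and *Mgp*-KO-labelled library 4 stands far below the others for *Mdh1*.

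Both genes of the citrate route were among the 4 members with the largest fold changes. *Slc25a1*, the citrate carrier of the inner membrane, lies at chr16:17925223-17928219 on the minus strand (GRCm38). Its normalized counts were 4792, 8257, 14251, 5450 and 11739 in wild type 1 to 5. In the *Mgp*-KO-labelled libraries 1 to 5 they were 2284, 2279, 2076, 2119 and 1522. Wild type 3 and 5 were the highest, and the lowest wild type library was 2.10 times the highest *Mgp*-KO-labelled library. Wild type averaged 8898 ± 4058 and the *Mgp*-KO-labelled libraries 2056 ± 313 (mean ± SD, n = 5 each). *Slc25a1* fell by 2.003 ± 0.302 (SE) on the log2 scale, a 4.01-fold difference with a limma adjusted p of 0.0471, and of 0.0121 with the set term. Replicates 1 to 3 gave -1.90, and replicates 4 and 5 gave -2.15. The call over all libraries was lost when wild type 2, 3 or 5 or *Mgp*-KO-labelled library 1, 2, 3 or 5 was left out, with adjusted p values of 0.0666 to 0.136 and fold changes that stayed between -2.04 and -1.80.

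*Acly*, ATP citrate lyase, splits citrate into acetyl-CoA and oxaloacetate and lies at chr11:100476353-100528000 on the minus strand. Wild type 1 to 5 had normalized counts of 18808, 34096, 47801, 11557 and 45327, and the *Mgp*-KO-labelled libraries 1 to 5 had 5658, 9245, 6863, 6219 and 3968. The wild type libraries spread over a 4.14-fold range, with wild type 4 and 1 lowest, and still lay above all *Mgp*-KO-labelled libraries. The log2 fold change of *Acly* was -2.16 ± 0.40 (SE), 4.48-fold, with a limma adjusted p of 0.0575 over all libraries and 0.0165 with the set term. Within the sets it was -2.14 in replicates 1 to 3 and -2.20 in replicates 4 and 5.

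*Acss2*, cytosolic acetyl-CoA synthetase, makes acetyl-CoA from acetate and lies at chr2:155517948-155585724 on the plus strand. Its normalized counts were 3679, 6246, 9314, 3672 and 8652 in wild type 1 to 5, against 1366, 859, 1525, 2083 and 1401 in the *Mgp*-KO-labelled libraries 1 to 5. Again the groups did not overlap, wild type 3 and 5 were highest, and *Mgp*-KO-labelled library 2 was lowest. For *Acss2* the log2 fold change was -2.07 ± 0.32 (SE), 4.19-fold, with a limma adjusted p of 0.0504, and of 0.0134 with the set term. In replicates 1 to 3 it was -2.30 and in replicates 4 and 5 it was -1.72.

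*Me1*, the cytosolic malic enzyme, had the largest fold change of the group and lies at chr9:86581371-86695953 on the minus strand. Its normalized counts were 2070, 3426, 6505, 3014 and 8884 in wild type 1 to 5. The *Mgp*-KO-labelled libraries 1 to 5 held 483, 501, 606, 1548 and 1110, so that replicates 4 and 5 exceeded replicates 1 to 3 in that group, and no *Mgp*-KO-labelled library reached the lowest wild type. The log2 fold change of *Me1* was -2.45 ± 0.44 (SE), 5.46-fold, with a limma adjusted p of 0.0518 over all libraries and 0.0108 with the set term. By set it was -2.76 (replicates 1 to 3) and -1.98 (replicates 4 and 5). Just 0.190% of all genes tested had a fold change below that of *Me1*.

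*Mdh1*, cytosolic malate dehydrogenase, makes the malate that *Me1* uses and also serves the malate-aspartate shuttle, which moves the reducing equivalents of NADH into mitochondria. It lies at chr11:21556787-21572367 on the minus strand. Normalized counts of *Mdh1* were 9128, 9972, 11247, 10542 and 15825 in wild type 1 to 5, against 10892, 8491, 9641, 2182 and 11531 in the *Mgp*-KO-labelled libraries 1 to 5. The groups overlapped, and 1 library, labelled *Mgp*-KO 4, was far below the rest. A log2 fold change of -0.59 ± 0.42 (SE) was found for *Mdh1*, with a limma adjusted p of 0.669 and a 95% interval of -1.49 to 0.32. Without *Mgp*-KO-labelled library 4 it was -0.14 (adjusted p = 0.842), and within replicates 1 to 3 it was -0.07. *Mdh1* thus gave no detectable difference, while the interval still allows one of the size seen for *Tkt*.

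The promoters of the 4 members with the largest fold changes are shown. *Me1* has 2 listed starts, and the window of the more upstream one, which holds a match, was chosen over the other, which holds none. Each is the RefSeq sequence (build GRCm38.p6) from 250 bases before to 30 bases after a transcription start, 5′ to 3′ on the strand of the gene. The windows are chr16:17928190-17928469 on the minus strand, chr11:100527971-100528250 on the minus strand, chr2:155517793-155518072 on the plus strand and chr9:86695885-86696164 on the minus strand. Capitals mark matches on either strand to the letters CACGTG (an E-box, bound by ChREBP and MYC family factors among others) or TGACNNNGC (the core of a site for the oxidant-response factor NRF2).
Slc25a1: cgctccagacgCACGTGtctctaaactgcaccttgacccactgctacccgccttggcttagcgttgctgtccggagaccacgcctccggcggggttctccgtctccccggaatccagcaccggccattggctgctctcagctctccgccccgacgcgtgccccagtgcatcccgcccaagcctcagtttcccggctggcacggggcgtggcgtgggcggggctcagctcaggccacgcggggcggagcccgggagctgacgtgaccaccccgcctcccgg
Acly: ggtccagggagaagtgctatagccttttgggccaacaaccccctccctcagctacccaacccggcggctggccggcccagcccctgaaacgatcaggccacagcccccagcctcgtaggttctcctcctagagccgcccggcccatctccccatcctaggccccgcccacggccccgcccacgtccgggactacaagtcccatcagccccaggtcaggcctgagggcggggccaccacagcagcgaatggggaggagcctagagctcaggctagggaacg
Acss2: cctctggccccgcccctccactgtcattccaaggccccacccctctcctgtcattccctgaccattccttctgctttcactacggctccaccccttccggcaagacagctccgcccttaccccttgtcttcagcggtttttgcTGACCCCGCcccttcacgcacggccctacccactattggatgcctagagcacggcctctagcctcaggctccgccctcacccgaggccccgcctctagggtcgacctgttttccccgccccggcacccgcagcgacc
Me1: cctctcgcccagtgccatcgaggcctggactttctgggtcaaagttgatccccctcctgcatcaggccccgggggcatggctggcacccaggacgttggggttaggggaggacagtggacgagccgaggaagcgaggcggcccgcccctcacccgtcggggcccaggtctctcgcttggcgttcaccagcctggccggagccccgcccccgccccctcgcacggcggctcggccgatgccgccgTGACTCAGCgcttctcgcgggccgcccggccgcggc

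All 10 members matched the promoter table, with 13 promoters between them. Searched on both strands, TGACNNNGC occurred in a promoter of 5 members (*Acss2*, *Me1*, *G6pdx*, *Pgd* and *Mdh1*) and in 5 of the 13 promoters, against 11.5% of all 32851 promoters of that length. Counted from the transcription start, the match began at -6 in *Me1* and read TGACTCAGC, at -57 in *G6pdx*, where it read GCTCAGTCA on the strand of the gene, and at -107 in *Acss2*. The matches in *Pgd*, at the more downstream of its listed starts, and in *Mdh1* lay after the start. CACGTG was found in *Slc25a1* alone, at -239, which is 1 of the 13, and in 6.79% of all promoters. TCACNCCAC, the core of a site for the lipogenic factor SREBP, was found in no member promoter and in 1.18% of all promoters. CCAAT, bound by NF-Y, occurred in 7 of the 13 (7 members) and in 36.1% of all, and GGGCGG, bound by SP1 family factors, in 11 of the 13 (all 10 members) and in 34.7% of all. No searched motif contains another, though matches may overlap at their ends. Such matches describe letters in a window and show neither binding nor use.

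*Idh1*, cytosolic isocitrate dehydrogenase, forms NADPH from isocitrate and lies at chr1:65158616-65186500 on the minus strand. Its normalized counts were 3247, 3898, 3848, 3277 and 4316 in wild type 1 to 5, against 3104, 1796, 2878, 2554 and 3090 in the *Mgp*-KO-labelled libraries 1 to 5. The lowest wild type library exceeded the highest *Mgp*-KO-labelled library by 1.05 times, so the ranges came close to touching, and *Mgp*-KO-labelled library 2 was the lowest. On the log2 scale *Idh1* differed by -0.49 ± 0.20 (SE), with a limma adjusted p of 0.407, of 0.164 with the set term and of 0.201 within replicates 1 to 3. *Idh1* did not pass the threshold in limma, edgeR or DESeq2 under any setting tried, its adjusted p ranging from 0.0911 to 0.797.

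Both NADPH steps of the oxidative arm of the pentose phosphate pathway had fold changes below 0. *G6pdx*, glucose-6-phosphate dehydrogenase and the entry to the pathway, lies at chrX:74409483-74429194 on the minus strand. Its normalized counts were 2029, 2543, 3407, 1582 and 2499 in wild type 1 to 5, against 1727, 1391, 1584, 589 and 982 in the *Mgp*-KO-labelled libraries 1 to 5. Wild type 4, at 1582, lay below the *Mgp*-KO-labelled libraries 1 and 3, and this was the sole overlap between the groups, since within each replicate set they were apart. On the log2 scale *G6pdx* differed by -0.995 ± 0.309 (SE), 1.99-fold, with a limma adjusted p of 0.254 over all libraries and 0.0420 with the set term. Within replicates 1 to 3 *G6pdx* had -0.74 (adjusted p = 0.0873), in replicates 4 and 5 -1.38 (adjusted p = 0.679), and without the *Mgp*-KO-labelled libraries 4 and 5 -0.58 (adjusted p = 0.227), all in limma. Without wild type 2, the set-term fit gave -1.04 with an adjusted p of 0.0933. Irrespective of group, the log2 level of *G6pdx* in replicates 4 and 5 minus that in replicates 1 to 3 was -0.71 ± 0.23 (SE, limma adjusted p = 0.0278), the 1 member of 10 to differ between the sets past the threshold, where 38.2% of all genes did in either direction.

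*Pgd*, 6-phosphogluconate dehydrogenase, catalyses the second NADPH step and lies at chr4:149149991-149166771 on the minus strand. It had normalized counts of 3492, 5184, 7465, 3197 and 9135 in wild type 1 to 5, against 1440, 1466, 1758, 2130 and 1744 in the *Mgp*-KO-labelled libraries 1 to 5. The *Mgp*-KO-labelled libraries were within 1.48-fold of each other, the wild type libraries within 2.86-fold, and the groups did not overlap. For *Pgd* the log2 fold change was -1.63 ± 0.29 (SE), 3.10-fold, with a limma adjusted p of 0.0518, and of 0.0165 with the set term. Within the sets it was -1.73 and -1.49. The difference in fold change between *G6pdx* and *Pgd* was not tested.

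*Tkt*, transketolase, moves carbon between sugar phosphates and lies at chr14:30548359-30574720 on the plus strand. Its normalized counts were 44826, 58633, 75524, 36239 and 47620 in wild type 1 to 5, against 22668, 16821, 21914, 16371 and 21777 in the *Mgp*-KO-labelled libraries 1 to 5. Every wild type library was at least 1.60 times the highest *Mgp*-KO-labelled library. The log2 fold change of *Tkt* was -1.37 ± 0.26 (SE), 2.58-fold, with a limma adjusted p of 0.0584 over all libraries and 0.0160 with the set term. It was -1.52 in replicates 1 to 3 and -1.14 in replicates 4 and 5.

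*Taldo1*, transaldolase, works with *Tkt* on the sugar phosphates and lies at chr7:141392199-141402968 on the plus strand. Wild type 1 to 5 had normalized counts of 6397, 7405, 9840, 9393 and 12437, and the *Mgp*-KO-labelled libraries 1 to 5 had 4452, 3631, 4116, 3788 and 5095. No *Mgp*-KO-labelled library reached the lowest wild type library, and this group varied by just 1.40-fold. In the limma fit *Taldo1* had a log2 fold change of -1.08 ± 0.22 (SE), 2.12-fold, with a limma adjusted p of 0.0703, and of 0.0160 with the set term. The sets gave -0.94 and -1.30.

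**Figure D2:**
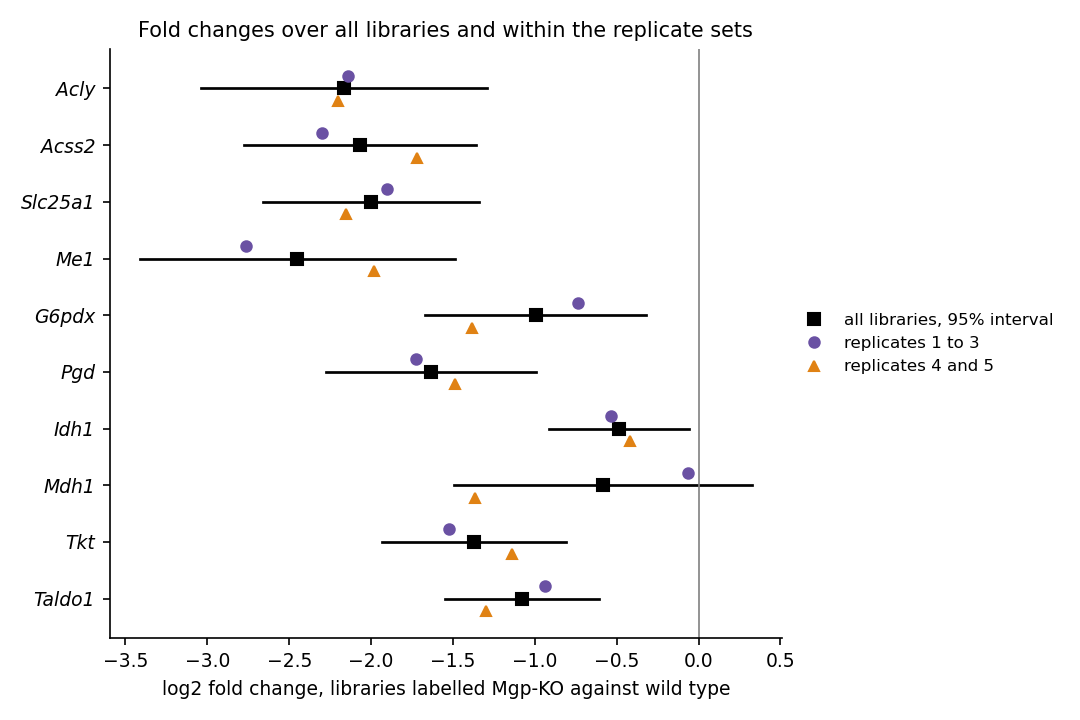
Log2 fold changes of the 10 supply genes, *Mgp*-KO-labelled libraries against wild type, with squares and 95% intervals from limma over all 10 libraries, circles for replicates 1 to 3 and triangles for replicates 4 and 5. All points lie below 0, and the interval reaches 0 for *Mdh1* alone (-1.49 to 0.32).

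Within each replicate set the members kept their direction. In replicates 1 to 3 the groups were apart, with the *Mgp*-KO-labelled libraries lower, for 9 of 10 members, which 15.1% of all genes tested also showed. In replicates 4 and 5, the set whose *Mgp*-KO-labelled libraries hold *Mgp* reads, it was again 9 of 10 members, and 21.3% of all genes. The exception was *Mdh1* in both sets. No member reached the threshold in limma on replicates 4 and 5 alone, nor did any other gene, although 7 members and 6.23% of all genes had an unadjusted p under 0.05 there. The test of whether the difference between the labelled groups itself differed between the sets called 0 members, and 1 of all genes, with adjusted p values of 0.527 to 0.977 over the members. The intervals behind those tests are wide. The log2 fold change in replicates 4 and 5 minus that in replicates 1 to 3 was -1.30 ± 0.76 (SE) for *Mdh1* and 0.78 ± 0.71 (SE) for *Me1*.

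The members had a like order over the wild type libraries. Of wild type 1 to 3, number 1 was lowest for 10 of 10 members (30.1% of all genes tested) and number 3 highest for 9 of 10 (42.8%), and wild type 5 was above wild type 4 for 10 of 10 (50.4%). Across all 5, every member was highest in wild type 3 or 5 and lowest in wild type 1 or 4, as were 24.3% of all genes tested. The highest wild type library exceeded the lowest by 4.29 times for *Me1*, by 4.14 times for *Acly* and by 1.33 times for *Idh1*. Among the *Mgp*-KO-labelled libraries the spread on the log2 scale was smaller for 7 of 10 members, the exceptions being *G6pdx*, *Idh1* and *Mdh1*.

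Per kilobase of the annotated principal transcript, *Tkt* had the highest level of the group in both groups, with a median of 14775 normalized counts per kilobase in wild type and 6757 in the *Mgp*-KO-labelled libraries. In wild type the order of medians went on with *Acly* (7762), *Taldo1* (7642), *Mdh1* (4968), *Slc25a1* (4956), *Pgd* (2337), *Acss2* (2131), *Idh1* (1671), *Me1* (1042) and *G6pdx* (942). Of these neighbours, just *Tkt* and *Acly* had ranges that did not overlap. In the *Mgp*-KO-labelled libraries the order of levels was *Tkt*, *Mdh1* (4543), *Taldo1* (3349), *Acly* (1416), *Slc25a1* (1272), *Idh1* (1250), *Pgd* (786), *G6pdx* (524), *Acss2* (478) and *Me1* (184). There, *Taldo1* and *Acly* were the only neighbours apart. By median, *Acly* thus stood below *Mdh1* in this group and above it in wild type, but the ranges of *Acly* and *Mdh1* overlapped in both groups.

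Several of these enzymes have a counterpart in another compartment of the cell, and for *Slc25a1* the mitochondrial dicarboxylate carrier *Slc25a10* was taken as the partner. The difference in log2(normalized count + 1) between member and partner was computed in each library and compared between the groups by a two-sided exact permutation test, adjusted over the 6 pairs. The smallest p that 5 against 5 libraries can give is 0.00794. *G6pdx* fell against *H6pd*, its partner in the endoplasmic reticulum, from -0.28 ± 0.23 (SD, n = 5) to -1.17 ± 0.51 (SD, n = 5), with no overlap (exact p = 0.00794, adjusted p = 0.0238). *Slc25a1* fell against *Slc25a10* from 5.76 ± 0.71 to 3.90 ± 0.28 (SD, n = 5 each), again with no overlap and the same exact p and adjusted p. These were the pairs whose call held when any 1 library was left out.

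The other pairs overlapped between the groups. *Acss2* against the mitochondrial *Acss1* went from 0.52 ± 0.67 to -1.78 ± 1.64 (SD, n = 5 each, exact p = 0.0317, adjusted p = 0.0476). *Me1* against the mitochondrial *Me2* went from 5.13 ± 0.96 to 3.28 ± 0.94 (SD, n = 5 each, exact p = 0.0159, adjusted p = 0.0317). *Idh1* against the mitochondrial *Idh2* went from -0.71 ± 0.42 to -2.04 ± 1.09 (SD, n = 5 each, exact p = 0.0397, adjusted p = 0.0476). For *Mdh1* against the mitochondrial *Mdh2* the change was -0.25 ± 0.19 (SE), which is not past the threshold (exact p = 0.246 with 5 libraries in each group). Without *Mgp*-KO-labelled library 4 the first 3 differences were -2.97, -2.19 and -1.78, each with an adjusted p of 0.0190 from the exact test. Leaving out any other library ended the calls for *Acss2* and *Idh1*, and any but wild type 1 ended that for *Me1*, with adjusted p values of 0.0635 to 0.0952.

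Of the 6 partners, 5 (*Idh2*, *Acss1*, *Mdh2*, *H6pd* and *Me2*) were lower in *Mgp*-KO-labelled library 4 than in any other library. How many of all genes were lowest in that library was not counted, so this may not be particular to the partners. *H6pd* had 918 normalized counts there and 2087 to 5588 elsewhere, whereas *Me2*, at 61.5, was close to the 62.7 of library 2 of that group. *Idh2* had normalized counts of 7453, 5520, 7405, 5636 and 4686 in wild type 1 to 5, against 17192, 15753, 15347, 3037 and 12022 in the *Mgp*-KO-labelled libraries 1 to 5. It was thus above all wild type libraries in 4 of them and below all wild type libraries in *Mgp*-KO-labelled library 4. *Acss1* had 4499, 4473, 4270, 3626 and 3620 in wild type, against 7919, 9555, 6843, 1119 and 4355 in the *Mgp*-KO-labelled libraries, with the same library lowest. Within replicates 1 to 3, *Idh2* rose by 1.26 on the log2 scale (limma adjusted p = 0.0112) and *Acss1* by 0.86 (adjusted p = 0.0281). In limma over all libraries, without the set term, their adjusted p values were 0.531 and 0.908.

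**Figure D3:**
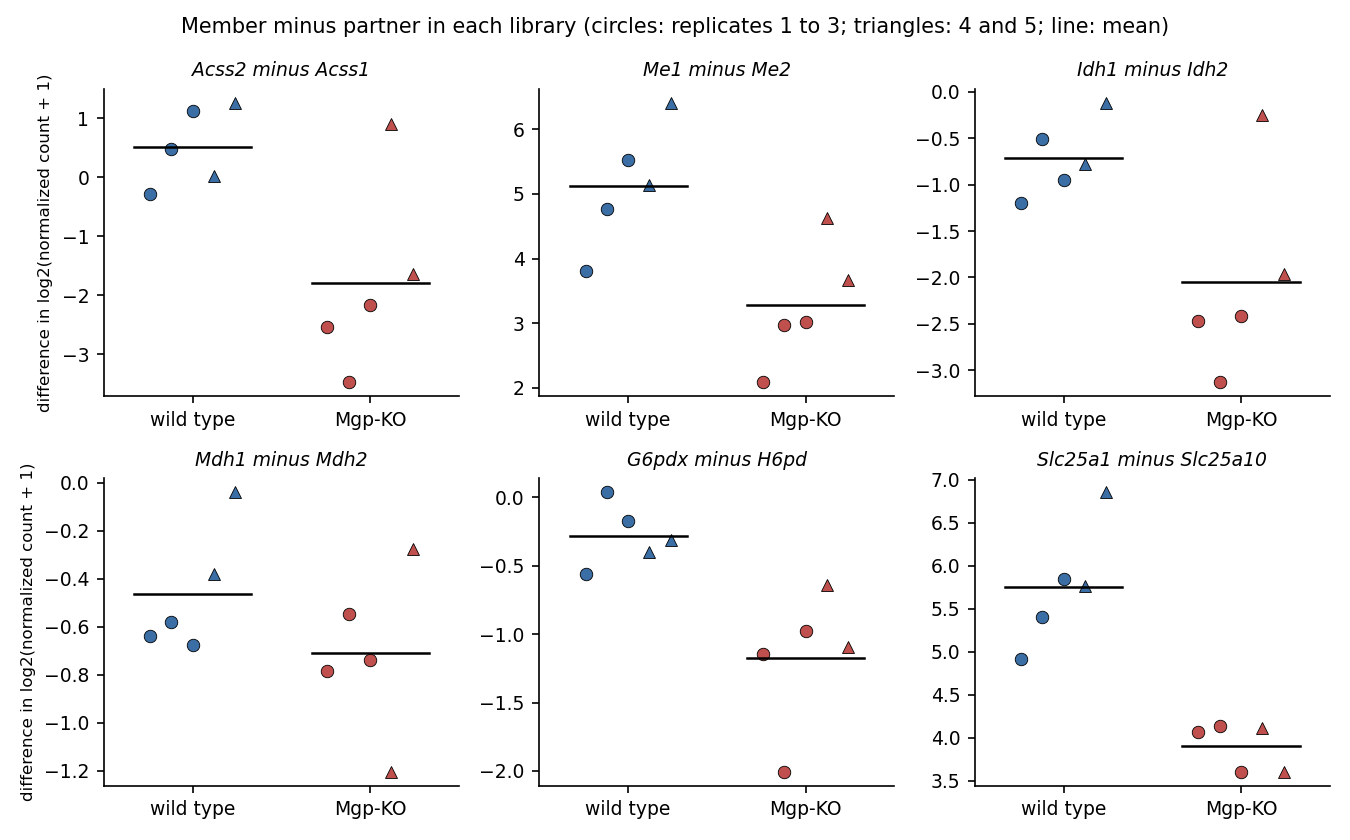
Difference in log2(normalized count + 1) between each supply gene and its partner, by library, with circles for replicates 1 to 3, triangles for replicates 4 and 5 and a line at the mean of each group. *G6pdx* minus *H6pd* and *Slc25a1* minus *Slc25a10* do not overlap between the groups, and *Mgp*-KO-labelled library 4 lies among the wild type libraries for *Acss2* minus *Acss1* (0.90) and *Idh1* minus *Idh2* (-0.25).

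Of 8 enzymes that spend acetyl-CoA and NADPH, 3 fell in limma over all libraries and all 8 had a fold change below 0, with a median of -1.27. Of all 13714 genes tested, 0.0583% were called lower and 6486 were below 0, which also stand beside the lists below. Without the *Mgp*-KO-labelled libraries 4 and 5, 7 were below 0, as were 6606 of all genes, and *Acacb*, a mitochondrial acetyl-CoA carboxylase, had 0.26. Centring on pan-adipocyte markers shifts the fold change of every gene by the same amount. Centred in this way, none of the 13714 genes passed, and all 8 enzymes were below 0, as were 2362 of all genes. *Scd1*, stearoyl-CoA desaturase, had a mean normalized count of 366244 in wild type and 26210 in the *Mgp*-KO-labelled libraries, a log2 fold change of -4.36 ± 0.61 (SE, limma adjusted p = 0.0322). *Fasn*, fatty acid synthase, changed by -3.86 ± 0.48 (SE, adjusted p = 0.0255). *Acaca*, acetyl-CoA carboxylase, changed by -2.52 ± 0.30 (SE, adjusted p = 0.0255). None of the 3 overlapped between the groups, and each was also past the threshold within replicates 1 to 3. Of all genes tested, 2.11% were apart in that direction, and 1.65% were called lower within replicates 1 to 3.

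Of 17 other genes of citrate and acetyl-CoA metabolism, 16 were tested, none passed over all libraries (limma; 4 had an unadjusted p under 0.05 and DESeq2 called *Pdhb* and *Dlat* lower), 15 were below 0, and the median was -0.60. *Pdhb*, a subunit of pyruvate dehydrogenase, did not overlap between the groups, with normalized counts of 6813 to 14601 in wild type and 2796 to 5307 in the *Mgp*-KO-labelled libraries. Its log2 fold change was -1.33 ± 0.25 (SE), with a limma adjusted p of 0.0575, and of 0.0162 with the set term, where it was the 1 gene of the list to fall. *Mpc2*, of the mitochondrial pyruvate carrier, had -0.88, *Aco1*, cytosolic aconitase, -0.77, and *Pdha1*, of pyruvate dehydrogenase, -0.70, none past the threshold in limma with or without the set term, whereas DESeq2 with the set term called *Mpc2* (adjusted p = 0.00198) and *Aco1* (adjusted p = 0.0211) lower. The list's median was -0.31 within replicates 1 to 3 and -0.26 centred on pan-adipocyte markers, with 10 of 16 below 0 in each. Of all 13714 genes tested, 6498 and 2362 were below 0 there. Centring shifts all genes alike, and the median of all genes was then 0.38.

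The other genes of NADPH supply and the pentose phosphate pathway did not move as 1 group. Of 18, 15 were tested, none passed over all libraries (limma; 3 had an unadjusted p under 0.05 and DESeq2 called 0), 10 were below 0, and the median was -0.52. With the set term, *Rpe*, ribulose-phosphate epimerase, fell (log2 fold change -0.87, limma adjusted p = 0.0226) and *Pgls*, the lactonase between *G6pdx* and *Pgd*, rose (0.82, adjusted p = 0.0259). *Pgls* had normalized counts of 1735, 1854, 2289, 1262 and 751 in wild type 1 to 5, against 3655, 3784, 3445, 1612 and 1535 in the *Mgp*-KO-labelled libraries 1 to 5. Within each replicate set the *Mgp*-KO-labelled libraries were above the wild type libraries. *Mthfd2l*, a folate enzyme, had -0.79 and did not pass in limma with or without the set term, while DESeq2 with the set term gave an adjusted p of 0.0108. That fit called 3 genes of the list lower and 2 higher, and 608 and 544 of the 15533 genes it tested. The median of the list was 0.05 without the *Mgp*-KO-labelled libraries 4 and 5 and -0.10 within replicates 1 to 3, where 4 of its genes rose (*Idh2*, *Pgls*, *Glud1* and *Me3*, the last 2 named after their values were seen). In limma on those replicates, 260 of all 13714 genes tested were called higher. *Nnt*, the mitochondrial transhydrogenase, named after its values were seen, had normalized counts of at most 3.52 in any library, where 3 reads correspond to 2.15 to 5.19 normalized counts. C57BL/6J mice are known to carry a deletion in *Nnt*, and the label here gives C57BL/6.

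The malate-aspartate shuttle, which shares *Mdh1*, had 4 of 5 genes above 0 and none past the threshold over all libraries (limma; 1 had an unadjusted p under 0.05 and DESeq2 called 0), with a median of 0.73. DESeq2 with the set term called *Got2* (adjusted p = 0.00178) and *Slc25a12* (adjusted p = 0.0498) higher. *Slc25a12*, the aspartate-glutamate carrier, had 0.80, the transaminases *Got2* and *Got1* 0.79 and 0.73, and *Mdh2* -0.34. Within replicates 1 to 3, *Got1* and *Got2* rose (1.05 and 0.84, limma adjusted p = 0.0225 and 0.0371).

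Of 9 lipogenic regulators, none passed over all libraries (limma; 2 had an unadjusted p under 0.05 and DESeq2 called *Thrsp* and *Nr1h3* lower), all 9 were below 0 and the median was -0.35. In replicates 1 to 3 alone, 7 were below 0 (median -0.17), and without the *Mgp*-KO-labelled libraries 4 and 5, 6 were (median -0.22). Centred on pan-adipocyte markers, 4 were (median 0.00). Since centring shifts all genes alike, the median of all genes was then 0.38, with 2362 of 13714 below 0. *Thrsp*, a lipogenic factor of adipose tissue and liver, had a log2 fold change of -1.28 ± 0.27 (SE), with a limma adjusted p of 0.0935, and fell with the set term (adjusted p = 0.0182). *Nr1h3*, the sterol receptor LXRα, had -0.57 and also fell with the set term (adjusted p = 0.0431). *Srebf1*, which encodes SREBP1, had -0.97 (adjusted p = 0.531) and *Insig1*, which holds SREBP back, -0.70 (adjusted p = 0.540), without passing in limma with or without the set term, while DESeq2 with the set term gave *Srebf1* an adjusted p of 0.0126. *Srebf1* normalized counts were 4859, 4795, 7025, 1149 and 3783 in wild type 1 to 5, against 2772, 2317, 3142, 803 and 1498 in the *Mgp*-KO-labelled libraries 1 to 5, so the ranges overlapped widely, and within replicates 1 to 3 alone *Srebf1* fell by 1.01 (limma adjusted p = 0.0361).

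Targets of NRF2 and thiol reductases, which use or answer to NADPH, showed no shared direction. Of 11, 10 were tested, none passed over all libraries (limma; 1 had an unadjusted p under 0.05 and DESeq2 called 0), 5 were below 0 and 5 above, and the median was 0.00. *Nqo1*, a quinone reductase, had 1.12, *Hmox1*, heme oxygenase, 0.47, *Gstm1*, a glutathione transferase, 0.40, and *Srxn1*, sulfiredoxin, -0.41.

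**Figure D4:**
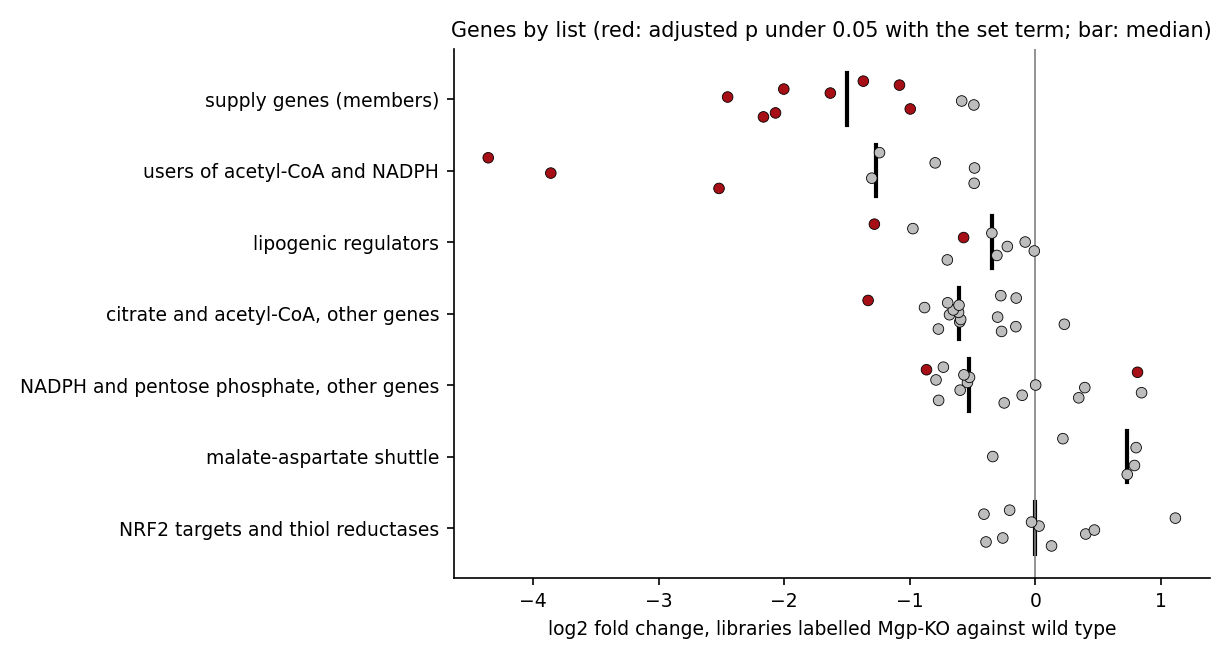
Log2 fold changes over all 10 libraries for the genes tested in each list, *Mgp*-KO-labelled libraries against wild type, with red for an adjusted p under 0.05 in limma with the set term and a bar at each list's median. The supply genes have a median of -1.50 with 8 in red, and the malate-aspartate shuttle a median of 0.73 with none.

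Cell type markers also differed between the libraries. Of 11 brown adipocyte markers 10 were below 0, with a summed normalized count of 94322 to 189587 in wild type and 39130 to 90180 in the *Mgp*-KO-labelled libraries. *Elovl3*, *Dio2*, *Ucp1* and *Adrb3* had the largest fold changes of that list (-3.64, -3.35, -2.70 and -2.37), none past the threshold in limma over all libraries and all 4 with the set term. DESeq2 with default settings called *Elovl3*, *Ucp1* and *Adrb3* lower. The 7 pan-adipocyte markers summed to 175302 to 299808 in wild type and 160206 to 248809 in the *Mgp*-KO-labelled libraries, which overlap, with 6 below 0, a median of -0.25 and -1.29 for *Plin1*. Centred on these 7 markers, the median of all genes moved to 0.38 and the members' fold changes lay between -2.10 and -0.14 with a median of -1.15. Past the threshold were 0 members and 0 of all 13714 genes. An unadjusted p under 0.05 in limma was found for 8 members and for 10.8% of all genes in either direction. Against the same markers, *Tkt* was the 1 member whose groups stayed apart, as did those of 0.365% of all genes in that direction.

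The 8 endothelial markers were all above 0 and summed to 18244 to 29746 in wild type and 21118 to 53976 in the *Mgp*-KO-labelled libraries, the highest being number 4. The 5 erythroid markers summed to 6436 to 19937 in wild type and 3009 to 101447 in the *Mgp*-KO-labelled libraries, number 4 again the highest and number 2 the lowest. Skeletal muscle markers, 7 in all, reached 29509 and 31698 in the *Mgp*-KO-labelled libraries 2 and 5 and 347 to 6135 in the other 8 libraries. The 8 myeloid markers (1341 to 2423 in wild type, 1584 to 2185 in the *Mgp*-KO-labelled libraries), the 4 Schwann markers (1187 to 2574 and 496 to 3352) and 4 of 6 white adipocyte markers measured (677 to 1108 and 272 to 2960) overlapped. No marker measured was at 0 in any library, and the part of other cell types in the members' values was not tested. Without the *Mgp*-KO-labelled libraries 4 and 5, 6 members were called lower (*Acss2*, *Slc25a1*, *Me1*, *Pgd*, *Tkt* and *Taldo1*), as were 0.955% of all genes, and the median fold change of the 10 members was -1.54.

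Reads in overlaps with neighbouring genes may be lost or counted for the neighbour, since the strand setting of the counting is not given in the sources used here. *G6pdx* overlaps *Ikbkg* on the opposite strand (normalized counts of 384 to 900) and *Acss2* overlaps *Gss* (225 to 613). These neighbours were below the members in every library but came near them in some of the *Mgp*-KO-labelled libraries. *Ikbkg* and *G6pdx* had 900 and 1391 in number 2, 384 and 589 in number 4 and 680 and 982 in number 5, and *Gss* and *Acss2* had 558 and 859 in number 2. The near copy *G6pd2* had at most 4.69 normalized counts.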

How the data were processed

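Per the labels and the study's methods, single-end 50-base reads were mapped by the authors with STAR 2.5.3a to mm10, counted per gene and divided by DESeq2 1.38.3 size factors. The deposited values are therefore a normalized signal, and 100% of them come out as whole reads (within 0.01 reads) once each library's step is divided out. How strand was treated in counting is not given in the sources used here. The main test was limma 3.58.1 (R 4.3.3, lmFit and eBayes with trend) on log2(value + 1) for genes with a mean of at least 10, without a block, Benjamini-Hochberg over all genes tested, threshold 0.05. Interactions with the replicate set used the same model. edgeR 4.0.16 and DESeq2 1.42.0 on the recovered reads were alternatives, and DESeq2 is the tool, in another version, that the study's methods name. Fits were tested on simulated data. Partner genes were compared with two-sided exact permutation tests.

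Named genes were the 10 members, *Mgp*, the partners and, from each list, those past the threshold or otherwise up to 4 with the largest fold changes. Members and lists were chosen with earlier results of these data known, so that counts over them are descriptions. Annotation came from GENCODE M21 (GRCm38) and promoters from RefSeq. Levels per kilobase used the longest transcript tagged as principal. The study's methods speak of pairs of knockout and wild type mice, without saying which mice form a pair. Nothing says that replicates are more than separate mice, so p-values measure the spread between these samples. Depth bounds precision: 3 reads correspond to 2.15 to 5.19 normalized counts, and the members held at least 364 reads in every library.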

Additional observations from a re-analysis of the deposited data

Results flagged for a closer look

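In groups of 5 libraries, a library was singled out where its gap to its nearest neighbour, as a share of the group's range, was above Dixon's 95% critical value. Of 32 groups tested, 2 met it, and chance gives about 1 in 20. *Slc25a1* was 1522 normalized counts in *Mgp*-KO-labelled library 5, against 2076 to 2284 in the others of that group. *Mdh1* was 2182 normalized counts in *Mgp*-KO-labelled library 4, against 8491 to 11531 in the others of that group. The *Mgp*-KO-labelled library 4 also had the lowest number of reads (9253793), the highest share of mitochondrial ribosomal RNA (16.7%) and the highest summed erythroid markers (101447). Their part in the *Mdh1* value was not tested.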

How the results depend on the processing

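All 310 fold changes of the members over 31 alternative settings were below 0, and none reversed. These are not independent. In limma the set term, the replicate block, the filter and the trend leave a fold change as it was, and many settings leave out just 1 library. The number of members past the threshold, 1 over all libraries, and of genes, 9, depended on the setting. They were 2 and 29 with a pseudocount of 10, 0 and 1 with no filter, 2 and 15 with a mean of at least 50, 0 and 11 without the mean-variance trend, 4 and 34 with quantile normalization, and 0 and 0 centred on pan-adipocyte markers. With the set term they were 8 and 324, in replicates 1 to 3 alone 7 and 486, in replicates 4 and 5 alone 0 and 0, and without the *Mgp*-KO-labelled libraries 4 and 5 they were 6 and 267. edgeR gave 0 and 3, or 8 and 341 with the set term. DESeq2 gave 7 and 374, or 8 and 1152 with the set term. In settings chosen after seeing the data, DESeq2 on replicates 1 to 3 gave 8 and 1348, the set term without wild type 2 gave 4 and 62, and the set term without *Mgp*-KO-labelled library 4 gave 8 and 678. Leaving out 1 library at a time gave 0 to 5 members and 0 to 93 genes, with the highest counts without *Mgp*-KO-labelled library 4 and 0 members without wild type 2, 3 or 5 or *Mgp*-KO-labelled library 1, 2, 3 or 5. The fits on fewer libraries hold fewer samples, and the cause of the other differences was not tested.

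With the replicate number of the labels as a block, limma called 8 members and 270 genes and edgeR called 7 and 222. Libraries with the same number deviated together with correlations of 0.527, 0.0559, 0.327, 0.523 and 0.514 (mean 0.390, against 0.416 for other numbers in the same set), and 5 of 10 libraries were best matched by their own number, so the numbers were not taken to pair the mice. For the partner genes, the paired differences were -2.30 (*Acss2*), -1.85 (*Me1*), -1.34 (*Idh1*), -0.89 (*G6pdx*) and -1.85 (*Slc25a1*), each with an adjusted p of 0.125 in an exact sign-flip test whose smallest possible p is 0.0625. Leaving out 1 library at a time gave -2.97 to -1.88 for *Acss2* against *Acss1*, -2.19 to -1.53 for *Me1* against *Me2* and -1.78 to -1.06 for *Idh1* against *Idh2*. In replicates 4 and 5 alone the difference was -1.01 for *Acss2* against *Acss1*, -0.65 for *Idh1* against *Idh2*, -0.51 for *G6pdx* against *H6pd* and -2.45 for *Slc25a1* against *Slc25a10*.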
